A study of Mus musculus with 6 samples.

Results

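Proliferins are secreted hormones of the prolactin family, encoded in the mouse by the closely related *Prl2c* genes, and *Prl8a6* encodes a prolactin-like protein of the placenta. The members were *Prl2c1*, *Prl2c2*, *Prl2c3*, *Prl2c4*, *Prl2c5* and *Prl8a6*, which were selected on their measured log2 ratios in keratinocytes lacking *Sox4*, where probes of this group fell. Of the 6 genes listed, 3 were matched by RefSeq accession to a probe of the array, among 21368 genes named in all. *Prl2c5* had 2 probes, and *Prl2c1* and *Prl8a6* had 1 probe each. *Prl2c2* and *Prl2c3* were matched by 0 probes, and *Prl2c4* is listed in the gene table as another name of *Prl2c3*. All 4 matched probes are reported.

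Keratinocytes from the back skin of newborn mice were grown on J2 fibroblast feeders and later passaged without them. Sox4 cKO, Sox11 cKO and dcKO (*Sox4* and *Sox11* double) cells carried floxed alleles removed by a Cre recombinase under the K14 promoter, which is active in basal keratinocytes, in crosses of floxed mice of mixed 129SvEx:C57BL/6 background with Cre mice of the FVB/N strain. Each of 6 two-color arrays, 2 per genotype, set knockout RNA against wild-type control RNA, with the knockout in Cy5 on replicate 1 and in Cy3 on replicate 2. Whether the wild-type RNA of different arrays came from separate cultures is not stated in the labels. The p-values and confidence intervals therefore rest on the spread between these arrays that remains after a dye term shared by all of them. In limma this spread was drawn toward that of all probes, with 5.367 prior and 2 residual degrees of freedom. All log2 ratios below are knockout over wild type, and a probe was called when its limma adjusted p was below 0.05 and its absolute log2 fold change above 1.5. The targeted gene *Sox4* was called lower by limma in Sox4 cKO and in dcKO cells, with a mean log2 ratio of -2.52 in each (adjusted p = 0.00400 and 0.00106). All 10 keratinocyte markers, among them *Krt5* and *Krt14*, were well above background in all 12 channels.

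Proliferin was first found as a secreted protein of growing mouse fibroblasts, and trophoblast giant cells of the placenta release large amounts that act on blood vessel growth. It binds the cation-independent mannose 6-phosphate receptor, encoded by *Igf2r*, whereas prolactin itself acts through *Prlr* and STAT5. AP-1 and the glucocorticoid receptor are known to act on the proliferin promoter. Proliferin family transcripts have also been described in skin, at wounds and in hair follicles.

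The likeness of the proliferin copies can be seen in the 250 bases upstream of their start sites in RefSeq (GRCm38.p6), where 3 of the listed genes had an entry. Capitals mark bases that differ or have no partner between *Prl2c3* and *Prl2c5*, and the *Prl8a6* stretch is shown as the more distant relative. *Prl2c3* lies at chr13:12800080-12800329 on the minus strand, *Prl2c5* at chr13:13182466-13182715 on the plus strand and *Prl8a6* at chr13:27438689-27438938 on the minus strand. The sequences run 5′ to 3′ toward the start.
Prl2c3: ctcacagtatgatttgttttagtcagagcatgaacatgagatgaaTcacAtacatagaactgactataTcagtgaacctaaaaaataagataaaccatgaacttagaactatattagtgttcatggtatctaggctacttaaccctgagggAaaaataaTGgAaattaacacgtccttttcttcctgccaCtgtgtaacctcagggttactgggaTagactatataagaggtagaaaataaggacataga
Prl2c5: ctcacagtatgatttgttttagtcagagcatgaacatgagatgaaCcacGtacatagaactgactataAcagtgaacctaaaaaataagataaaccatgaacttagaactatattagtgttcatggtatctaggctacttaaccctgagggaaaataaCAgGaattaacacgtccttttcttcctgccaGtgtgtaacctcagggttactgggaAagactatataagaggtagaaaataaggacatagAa
Prl8a6: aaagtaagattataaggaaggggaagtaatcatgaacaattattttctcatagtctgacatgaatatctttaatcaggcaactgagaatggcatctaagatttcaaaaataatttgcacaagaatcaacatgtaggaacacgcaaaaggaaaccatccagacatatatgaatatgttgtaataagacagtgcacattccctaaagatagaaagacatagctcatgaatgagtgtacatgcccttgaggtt

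The *Prl2c3* and *Prl2c5* stretches were identical at 241 of 251 aligned positions (96.0%), with 8 mismatches and 2 gap positions. *Prl8a6* was identical to *Prl2c5* at 49.6% of positions and to *Prl2c3* at 47.5%. The motif TATATAA (either strand) occurred once upstream of *Prl2c3* and once upstream of *Prl2c5*, and in 3.04% of all 32851 upstream stretches of this length. The AP-1 consensus TGACTCA (either strand) had no match in any of the 3 and was found in 4.46% of all upstream stretches. The motif AACAAAG (either strand), of the kind bound by SOX proteins, likewise had no match and was found in 5.03% of all stretches.

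In the Sox4 cKO arrays, from which the members were selected, all 4 probes were lower in knockout RNA, and these values are given as a description only. The brightest proliferin probe, *Prl2c5* probe A_52_P619248, had log2 ratios of -3.67 on replicate 1 and -4.18 on replicate 2. Their mean was -3.92 ± 0.36 (SD, n = 2), a 15.1-fold lower signal. The second *Prl2c5* probe, A_55_P2004752, had log2 ratios of -3.63 and -3.90, and the *Prl2c1* probe, A_55_P2183208, had -3.53 and -3.69. All 3 proliferin probes thus fell by similar amounts under both dye orientations. *Prl8a6* (A_55_P2269459) had log2 ratios of -2.79 and -1.94, with a mean of -2.37 ± 0.60 (SD, n = 2). All 4 member probes met the call thresholds in this comparison, as did 0.101% of all 55681 probes in the lower direction. Because the members were selected for falling on these arrays, this count is no test of them. With an offset of 50 or of 0 in the background correction, or after leaving out either 1 of the Sox4 cKO arrays, 0 of the 4 met them, while all 4 remained lower in knockout RNA. A probe of the related *Prl8a1*, which is no member, had a mean of -4.11 but missed the threshold on adjusted p.

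The scanner signals before any correction show the same direction for the *Prl2c5* probe A_52_P619248. On Sox4 cKO replicate 1 its median signal was 5187.5 in the knockout channel (Cy5) and 28575.5 in the wild-type channel (Cy3). On replicate 2, with the dyes exchanged, it was 1336.5 in the knockout channel (Cy3) and 50898.5 in the wild-type channel (Cy5). The size of the contrast before correction thus differed far more between the replicates than in the normalized ratios. Local background was between 24 and 54 for this probe on all 6 arrays, and 0 of the members' spots were marked as saturated or as outliers. The signal thus stayed far above background in Sox4 cKO cells too.

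After normalization between arrays, the level of a channel can be set beside that of another array for the same probe. For the *Prl2c5* probe A_52_P619248, the log2 level in Sox4 cKO RNA was 11.59 and 11.01, against 15.26 and 15.18 in the wild-type RNA of the same arrays. The wild-type level was 14.12 and 14.58 on the Sox11 cKO arrays and 13.68 and 14.36 on the dcKO arrays. Both Sox4 cKO values therefore lay below all 6 wild-type values. These arrays had selected the members, and how many of all probes show such an order was not counted. The wild-type channels of the Sox4 cKO arrays were also the highest of the 6, on average 1.03 above the other wild-type channels on the log2 scale. The same held for the second *Prl2c5* probe and for *Prl2c1*, whose wild-type channels on these arrays were higher than the others by 1.11 and 0.86.

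*Prl8a6* differed from the proliferins in this respect. Its log2 level in Sox4 cKO RNA was 5.38 and 5.58, against 8.17 and 7.52 in the wild-type RNA of the same arrays. In wild-type RNA it was 5.65 and 5.16 on the Sox11 cKO arrays and 5.76 and 6.80 on the dcKO arrays. The Sox4 cKO values thus lay within the range of the 6 wild-type values, and the wild-type channels of the Sox4 cKO arrays stood 2.01 above the other wild-type channels. *Prl8a6* was well above background on 1 of 2 Sox4 cKO channels and on 1 of 2 channels of each kind on the Sox11 cKO arrays. These comparisons across arrays rest on the between-array normalization and were not tested.

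**Figure D1:**
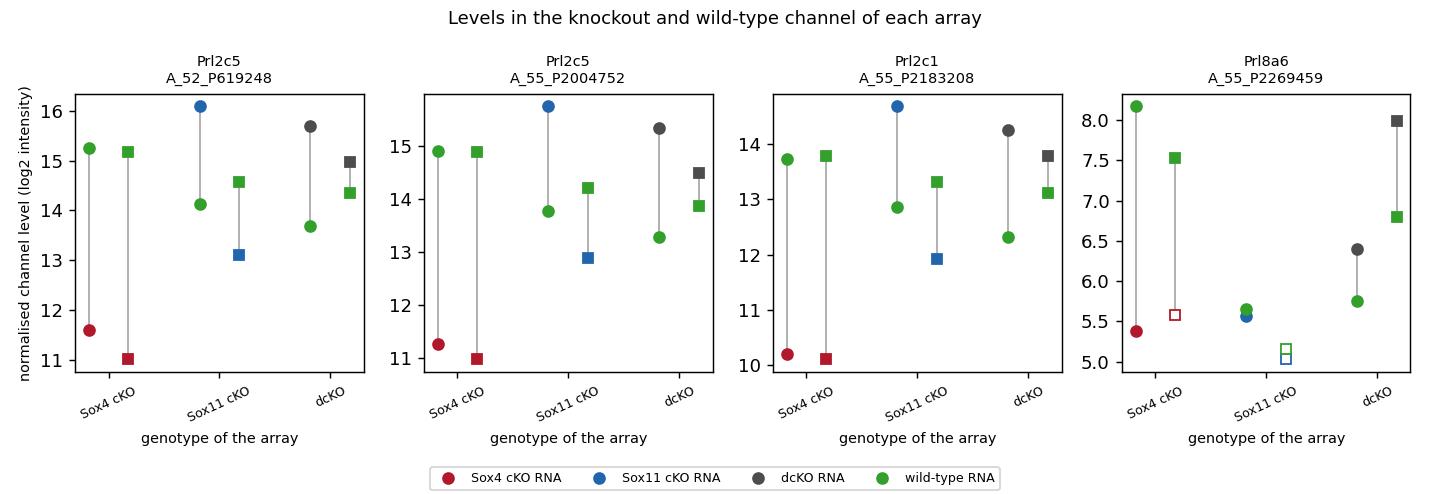
Normalized channel level (log2 intensity, y axis; each panel has its own scale) of the 4 member probes in the knockout and the wild-type (green) channel of each array. Circles are replicate 1, squares replicate 2, gray lines join the channels of 1 array and open symbols were not well above background; the wild-type channels of the Sox4 cKO arrays are the highest wild-type values in each panel.

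Loss of *Sox11* alone was examined next, on arrays that had not been used to select the members. The proliferin probes differed in opposite directions on the Sox11 cKO arrays. *Prl2c5* probe A_52_P619248 had a log2 ratio of 1.97 on replicate 1 and of -1.48 on replicate 2. The mean of 0.25 ± 2.44 (SD, n = 2; 95% confidence interval of the fit -0.73 to 1.22; limma adjusted p = 0.988) was far smaller than the spread. Neither array lay within this interval. The fit takes out the difference between replicates 1 and 2 that the genotypes share. Its spread is pooled over the genotypes and drawn toward that of all probes. The second *Prl2c5* probe had log2 ratios of 1.98 and -1.32 (limma adjusted p = 0.980), and *Prl2c1* had 1.82 and -1.39 (limma adjusted p = 0.989). On replicate 1 the Sox11 cKO channel held the highest level of *Prl2c5* probe A_52_P619248 in the series, 16.10, and on replicate 2 it held 13.10. *Prl8a6* had log2 ratios of -0.09 and -0.13, close to background in both channels (limma adjusted p = 0.988). Of the 4 member probes, 0 were called by limma and 0 had an unadjusted p below 0.05. Over all probes, 0.0862% were called in this comparison.

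In dcKO cells, which like Sox4 cKO cells had lost *Sox4*, all 4 probes had positive log2 ratios on both arrays. *Prl2c5* probe A_52_P619248 had log2 ratios of 2.02 and 0.61. The mean was 1.31 ± 0.99 (SD, n = 2; 95% confidence interval of the fit 0.34 to 2.29; limma adjusted p = 0.209). The second *Prl2c5* probe had log2 ratios of 2.05 and 0.62 (limma adjusted p = 0.206), and *Prl2c1* had 1.94 and 0.68 (limma adjusted p = 0.222). The proliferin probes thus gave nearly the same values on each array but differed between the arrays. *Prl8a6* had log2 ratios of 0.65 and 1.19, with a mean of 0.92 ± 0.38 (SD, n = 2; 95% confidence interval of the fit 0.49 to 1.35; limma adjusted p = 0.0575). Of the 4 probes, 0 were called by limma, beside 0.756% of all probes, while all 4 had an unadjusted p below 0.05. The share of all probes below that unadjusted limit was not counted, and the proliferin probes are not separate evidence, as their values were nearly the same. With median centring in place of loess the log2 fold change was 0.79 for *Prl2c5* probe A_52_P619248 and 0.60 for *Prl8a6*, and with the processed signals that of *Prl8a6* was 1.62. Leaving out either Sox11cKO replicate 1 or Sox11cKO replicate 2 gave this *Prl2c5* probe a limma adjusted p of 0.00228, with its log2 fold change still under the limit.

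The log2 level of *Prl2c5* probe A_52_P619248 in dcKO RNA was 15.70 and 14.97, against 13.68 and 14.36 in the wild-type RNA of those arrays. The dcKO values lay above the wild-type values of these arrays, but overlapped the 15.26 and 15.18 of the wild-type channels on the Sox4 cKO arrays. How many of all probes separate in this way on the dcKO arrays was not counted. For *Prl8a6*, the dcKO levels of 6.40 and 7.98 likewise overlapped the wild-type range of 5.16 to 8.17 over the 6 arrays. Set side by side, the mean log2 ratios of *Prl2c5* probe A_52_P619248 were -3.92 in Sox4 cKO and 1.31 in dcKO cells, and those of *Prl8a6* were -2.37 and 0.92. The difference between these genotypes was not tested, since the Sox4 cKO values had selected the members.

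**Figure D2:**
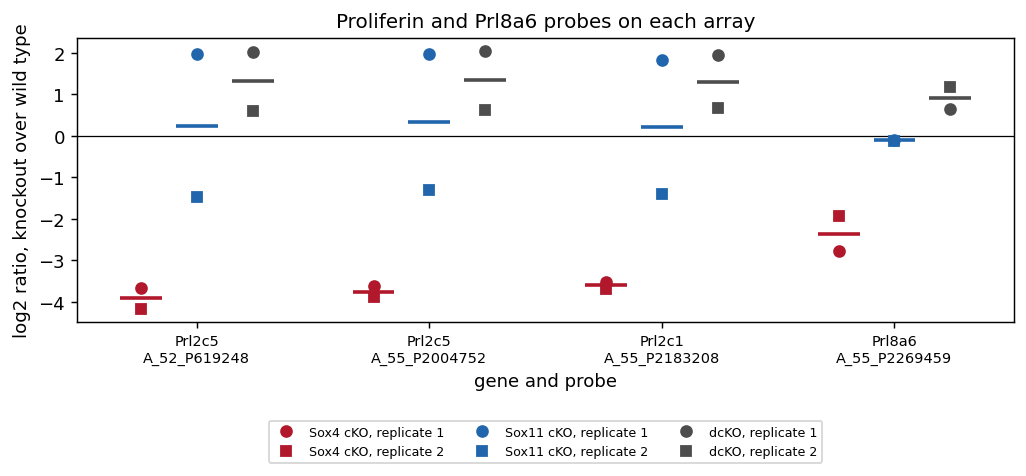
Log2 ratio of knockout over wild type (y axis) for each member probe (x axis) on each array, colored by genotype, with circles for replicate 1, squares for replicate 2 and bars for the mean of 2 arrays. All Sox4 cKO points lie at -1.94 or lower and all dcKO points at 0.61 or higher, while the Sox11 cKO points of the proliferin probes fall on both sides of 0.

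The double knockout was then compared with the *Sox11* knockout, to ask whether the further loss of *Sox4* went with a difference in the members. *Prl2c5* probe A_52_P619248 was higher in dcKO than in Sox11 cKO cells by a log2 difference of 1.07 ± 0.59 (SE; 95% confidence interval -0.31 to 2.45; limma adjusted p = 0.636). For *Prl2c1* the log2 difference was 1.09 ± 0.60 (SE; limma adjusted p = 0.635). For *Prl8a6* it was 1.03 ± 0.26 (SE; 95% confidence interval 0.42 to 1.63; limma adjusted p = 0.175). Of the 4 probes, 0 were called by limma, beside 0.449% of all probes. Only *Prl8a6* had an unadjusted p below 0.05, a limit for which the share of all probes was not counted. Its log2 difference was 0.68 with median centring and 2.11 with the processed signals, and on Sox11 cKO replicate 2 neither channel was well above background. Without Sox11cKO replicate 1, 3 of the 4 probes were called, with log2 differences between 2.23 and 2.35 for the proliferins. Without Sox11cKO replicate 2, the log2 difference of *Prl2c5* probe A_52_P619248 was -0.18. The comparison of the proliferins with Sox11 cKO cells was therefore decided by which Sox11 cKO array was kept.

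Replicate 1 gave the higher log2 ratio for all 3 proliferin probes in each of the 3 genotypes. Knockout RNA carried Cy5 on each of these arrays, and dye and replicate number cannot be told apart in this design. In the table of log2 values deposited by the authors, which had been corrected for a dye effect, *Prl2c5* probe A_52_P619248 stood at -4.40 and -3.43 in Sox4 cKO, at 1.04 and -0.54 in Sox11 cKO and at 1.23 and 1.42 in dcKO cells. The signs on each array were the same as in the ratios above. For *Prl8a6* that table held -2.57 and -2.16 in Sox4 cKO, 0.07 and -0.28 in Sox11 cKO and 0.84 and 0.99 in dcKO cells. For *Prl8a6* the sign on Sox11 cKO replicate 1 was thus positive in that table and negative in the ratios above.

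The probes assigned to *Prl2c5* and *Prl2c1* gave closely similar measurements. Over the 12 channel levels, the *Prl2c5* probes correlated with each other at r = 0.998, and with the *Prl2c1* probe at r = 0.996 for both. These correlations share their arrays and are given as a description. The log2 ratios of *Prl2c1* differed by at most 0.49 from those of *Prl2c5* probe A_52_P619248 and by at most 0.22 from those of the second *Prl2c5* probe on any array. Between the *Prl2c5* probes the largest difference was 0.27. For comparison, pairs of probes of the same gene elsewhere on the array (2390 pairs) had a median largest difference of 0.50 (quartiles 0.34 and 0.69). The differences between probes of different proliferin genes thus did not exceed that median. Each of these probes may bind transcripts of several *Prl2c* genes, including those with no matched probe, and the gene names are uncertain. Transcript sequences were not compared here, and the comparison of upstream stretches did not include *Prl2c1*. How much each transcript contributed was not tested, as the probe sequences were not used here. *Prl8a6* had a correlation of 0.47 to 0.48 with the proliferin probes and a log2 ratio that differed from theirs by up to 2.23.

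The proliferin genes *Prl2c2*, *Prl2c3* and *Prl2c5* are neighbors on chromosome 13. They lie between *Gpr137b-ps* and *Gpr137b*, the nearest other genes with a probe, with *Prl2c5* last. *Prl2c1* lies apart from them, in the main prolactin cluster next to *Sox4*, with *Prl4a1* and *Prl5a1* in between, and *Prl8a6* belongs to the same cluster. None of the neighbors outside the prolactin family was called in any of the 4 comparisons: 0 of 20 genes around the proliferins, 0 of 10 around *Sox4* and 0 of 8 around *Prl2c1* and *Prl8a6*. Most genes around *Prl2c1* and *Prl8a6* are also in the list around *Sox4*. Over all probes, 0.101% were called lower in Sox4 cKO cells and 0.0862% to 0.756% were called in the other comparisons. Lists of this size would thus hold few calls in any case. The median log2 fold changes of the neighbor lists in Sox4 cKO cells were -0.18, -0.03 and 0.08, in the same order, beside 0.00 over all probes.

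The rest of the prolactin family was represented by 24 probes of 20 genes, and 0 of them were called in any comparison. Of the 24 probes, 14 were below background in every channel and 6 well above it in at least 6 of 12 channels. These 6 were probes of *Prl2a1*, *Prl3b1*, *Prl3d1*, *Prl7b1*, *Prl8a1* and *Prl8a9*, all genes otherwise known from the placenta. In Sox4 cKO cells 4 of the 6 had negative log2 ratios on both arrays. In Sox11 cKO cells 2 had negative ratios on both and 1, *Prl2a1*, had positive ratios on both. In dcKO cells 3 had negative ratios on both and 1, *Prl8a1*, had positive ratios on both. Some of the negative dcKO ratios were near 0, such as -0.01 for *Prl2a1* and -0.08 for *Prl3d1*. The share of all probes with the same sign on both arrays was not counted.

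*Prl8a1* was the closest in pattern. Its log2 ratios were -4.99 and -3.23 in Sox4 cKO (limma adjusted p = 0.0793), -0.17 and -1.39 in Sox11 cKO (limma adjusted p = 0.933) and 3.75 and 1.05 in dcKO cells (limma adjusted p = 0.115). Its wild-type log2 level was 11.63 and 9.51 on the Sox4 cKO arrays and between 6.06 and 8.29 on the other arrays. As for the members, the wild-type channels of the Sox4 cKO arrays were the highest. *Prl8a9* had log2 ratios of -1.95 and -1.21 in Sox4 cKO, -0.29 and -0.93 in Sox11 cKO and 1.67 and -0.46 in dcKO cells. *Prl7b1*, whose knockout channels on the Sox4 cKO and dcKO arrays were at background, had log2 ratios of -2.68 and -1.21 in Sox4 cKO and of -0.15 and -0.48 in dcKO cells. *Prl3b1* and *Prl3d1*, which encode the placental lactogens, stayed between -0.41 and 0.24 on all arrays. Both lay near background, at log2 levels of 5.43 to 6.15, which limits their ratios. A second *Prl3d1* probe was not well above background in any channel.

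**Figure D3:**
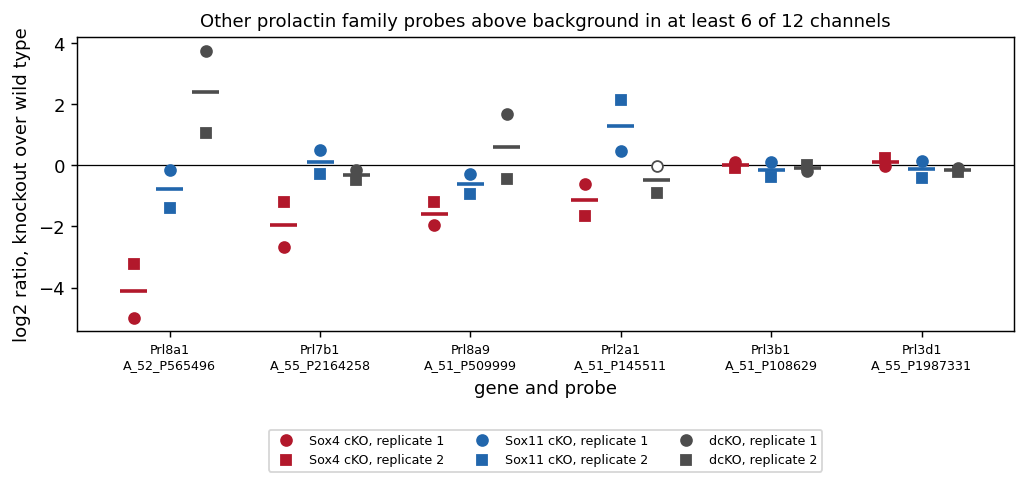
Log2 ratio of knockout over wild type (y axis) on each array for the 6 other prolactin family probes (x axis) that were well above background in at least 6 of 12 channels, with colors for the genotype, circles for replicate 1, squares for replicate 2 and bars for the mean of 2 arrays. An open symbol marks an array on which neither channel was well above background. *Prl8a1* spans -4.99 to 3.75, whereas *Prl3b1* and *Prl3d1*, whose levels lie near background, stay near 0.

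Fibroblasts are a known source of proliferin, and the cells had been in contact with fibroblast feeders, so 20 fibroblast markers were examined on the same arrays. Of these, 7 were below background in every channel, namely *Col1a1*, *Col3a1*, *Thy1*, *Pdgfrb*, *Lum*, *Postn* and *Fap*. *Sparc*, *Fbln2* and *S100a4* were above background in all 12 channels, and *Col1a2* and *Fn1* in 11. The others ranged from 1 channel, as for *Dcn*, to 6 for *Col5a1*. In Sox4 cKO cells 1 marker was called, *Vim*, which encodes the intermediate filament of mesenchymal cells. Its mean log2 ratio there was -2.27 ± 0.90 (SD over 2 arrays, limma adjusted p = 0.0337), with a mean wild-type log2 level of 8.30 on these arrays against 5.06 and 5.28 on the Sox11 cKO and dcKO arrays. In dcKO cells 1 marker was called, *Fn1* (fibronectin), whose mean log2 ratio was -3.97 ± 0.60 (SD over 2 arrays, limma adjusted p = 0.00287). In Sox11 cKO cells 0 were called. *Vim* was above background in only 4 of 12 channels. In dcKO cells its mean log2 ratio was -0.38, with 0 knockout channels and 1 wild-type channel above background. *Fn1* was also lower on both Sox4 cKO arrays, at log2 ratios of -2.28 and -0.36. In Sox11 cKO cells its mean log2 ratio was -1.21, and it was called in neither single knockout.

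The summed fibroblast marker signal, on a log2 scale, ranged from 15.45 to 16.34 in Sox4 cKO RNA and from 16.67 to 17.11 in the wild-type RNA of the same arrays. It was 16.26 to 16.36 in Sox11 cKO RNA against 14.69 to 16.75, and 15.63 to 15.84 in dcKO RNA against 16.53 to 16.75. This sum was carried by *Sparc*, the brightest marker on the list, which encodes a matrix protein. The knockout minus wild-type difference of the sum was -0.33 and -1.65 in Sox4 cKO, -0.39 and 1.57 in Sox11 cKO and -0.92 and -0.90 in dcKO cells. Without *Sparc*, a choice made after seeing the data, it was 0.06 and -0.99 in Sox4 cKO, -0.20 and 1.33 in Sox11 cKO and -0.01 and 0.42 in dcKO cells. Leaving out this gene thus removed the lower sum in dcKO cells and in Sox4 cKO replicate 1. On the Sox11 cKO arrays the sum had the sign opposite to the proliferin ratios with and without it. The part of fibroblast RNA in the Sox4 cKO ratios was not tested. Fewer cells of a type and less RNA per cell cannot be told apart in such bulk samples.

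Of 8 trophoblast markers, 3 (*Ctsq*, *Hand1* and *Cdx2*) were below background in every channel. *Tpbpa*, the marker of the spongiotrophoblast, was above it in 2 of 12, as were *Elf5* and *Psg17*. *Ascl2* and *Gcm1* were above it in all 12. *Gcm1*, a transcription factor of the placental labyrinth, was the only one called, lower with *Sox4* lost, by a mean log2 ratio of -2.24 ± 0.46 (SD over 2 arrays, limma adjusted p = 0.0464). With both genes lost it stood at -0.34 (limma adjusted p = 0.747). Of the 10 keratinocyte markers, *Krt15*, a keratin of basal cells, was called lower on the Sox4 cKO arrays, with a mean log2 ratio of -1.58 ± 0.08 (SD over 2 arrays, limma adjusted p = 0.0245). In dcKO cells *Krt15* stood at 0.85 ± 0.05 (SD over 2 arrays, limma adjusted p = 0.0432), under the fold limit. None of the 7 melanocyte, 6 immune and 4 endothelial markers was called in any comparison.

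**Figure D4:**
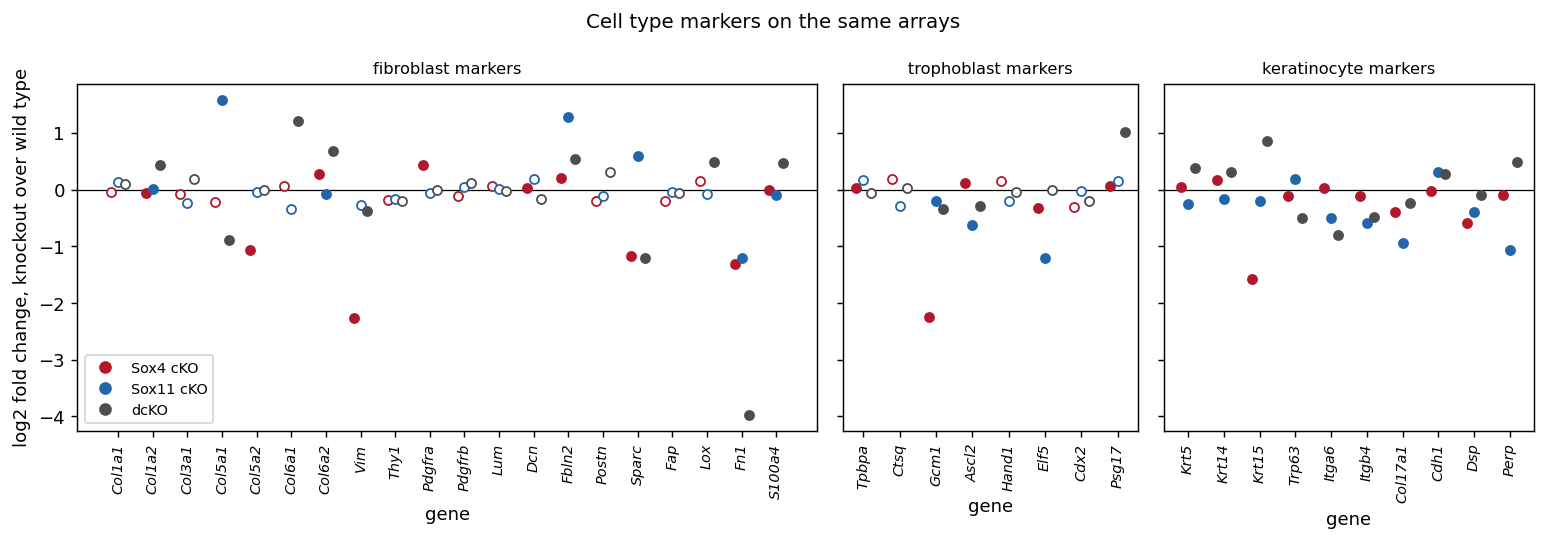
Log2 fold change of knockout over wild type (y axis; mean of 2 arrays) of fibroblast, trophoblast and keratinocyte markers (x axis), colored by genotype, with open circles where no channel of that genotype's arrays was well above background. *Vim* at -2.27, *Gcm1* at -2.24 and *Krt15* at -1.58 in Sox4 cKO and *Fn1* at -3.97 in dcKO cells are the called markers.

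Receptors and signaling genes of these hormones showed 0 calls of 10 in each comparison. *Prlr* was below background in every channel. *Igf2r* was above background in every channel, with log2 fold changes of 0.45 in Sox4 cKO (limma adjusted p = 0.645), -0.46 in Sox11 cKO (limma adjusted p = 0.666) and 0.79 in dcKO cells (limma adjusted p = 0.0846). In dcKO cells *Ghr*, the growth hormone receptor, and *Stat5a* had adjusted p-values below the threshold with changes under the fold limit, at -1.35 (limma adjusted p = 0.0411) and -0.79 (limma adjusted p = 0.0442).

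Of the 8 transcription factors known at the proliferin promoter, 1 was called in dcKO cells and 0 in either single knockout. *Fosl1*, which encodes the AP-1 subunit FRA1, fell in dcKO cells to a log2 ratio of -1.72 ± 0.27 (SD over 2 arrays, limma adjusted p = 0.00345). On the Sox4 cKO arrays *Fosl1* stood at 1.24 ± 0.50 (SD, n = 2; limma adjusted p = 0.0422), under the fold limit. Over all 8 factors the median log2 fold change was 0.14 in Sox4 cKO, -0.10 in Sox11 cKO and -0.13 in dcKO cells. Whether any of the 8 had a part in the proliferin ratios was not tested. *Jun* had log2 fold changes of -0.41, -0.55 and -0.51 in Sox4 cKO, Sox11 cKO and dcKO cells, and *Nr3c1*, the glucocorticoid receptor, had -0.13, -0.26 and 0.16. None of these passed the test.

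Among 12017 genes outside the family with a probe above background in at least 6 channels, the 5 most like the *Prl2c5* probe A_52_P619248 over the 12 channel levels included *Ppp1r9b* (r = 0.916), *Ckap4* (r = 0.827), *Thap6* (r = 0.778) and *Prap1* (r = 0.769). These points share their arrays, so the correlations are descriptive. The changes of these genes were small: *Ppp1r9b* had mean log2 ratios of -0.28 in Sox4 cKO and 0.23 in dcKO cells. None of these 4 was called in any comparison.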

How the data were processed

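Scanner files of 6 Agilent arrays and the authors' table of log2 ratios were used. Linear spot intensity values were deposited by the authors for both channels, from Feature Extraction 11.0.1.1 (Agilent). The files also hold processed intensity values and a log10 ratio of Cy5 over Cy3, per the file headers. The authors' log2 table had been background corrected, loess normalized and freed of a dye effect. It served as an alternative, as did the processed signals. Median signals were used, in place of the mean signals planned, which were not used here.

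Analysis used R 4.3.3 and limma 3.58.1, with normexp (offset 16, as in the study) and loess within arrays. Each array had 62976 spots, of which 3671 were controls and not used, and the remaining spots were averaged to 55681 probes. Outlier spots were set to missing. Depth has no direct counterpart on arrays, where the number of arrays limits precision; 35.2% to 42.9% of probes were well above background in a knockout channel and 37.3% to 45.1% in a wild-type channel.

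Log2 ratios were fitted over all 6 arrays with genotype effects and a dye term shared by all arrays (lmFit, eBayes; 2 residual degrees of freedom), with Benjamini-Hochberg adjustment over all probes. The dye term equals a replicate block. Deviations of same-numbered arrays from their genotype means correlated at 0.316, 0.244 and 0.125. Channel levels followed Aquantile normalization between arrays. The model was tested on simulated data. The members and the gene lists were chosen with earlier results of these data known. Named genes were all probes matched to the members, the prolactin family, fixed marker, receptor, factor and neighbor lists, and the 5 genes most like the brightest member probe. Of these 5, 1 is not reported here. Outside the members, the brightest probe of a gene was used. Names came from a gene table of GRCm38.p6, which named 28331 probes (50.9%); the array was designed on another build, so no probe coordinates are given.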

Additional observations from a re-analysis of the deposited data

Results flagged for a closer look

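The 3 proliferin probes and *Prl8a6* stood out because both dcKO arrays lay above wild type and both Sox4 cKO arrays below it. The mean log2 ratios in dcKO cells were 1.31 and 1.34 for the *Prl2c5* probes, 1.31 for *Prl2c1* and 0.92 for *Prl8a6*. *Prl8a6* also had both Sox11 cKO arrays below 0, at -0.09 and -0.13. These differences between genotypes were not tested here, because the Sox4 cKO values had selected the members; the dcKO minus Sox11 cKO difference of *Prl8a6* was not called (limma adjusted p = 0.175). Sox4cKO, Sox11cKO and dcKO had 2 arrays each, too few for a check of single outlying arrays.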

How the results depend on the processing

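Each comparison was repeated under 15 alternatives, 6 of which left out 1 array. The counts for Sox4 cKO cells only describe how the selecting values depended on the processing. The number of member probes called in Sox4 cKO cells, 4, was 0 with an offset of 50, 0 with an offset of 0 and 0 with Feature Extraction's processed signals. It was 1 without the replicate block, 1 with the dye effect subtracted before the fit and 1 over probes above background in at least 2 channels. Leaving out arrays gave 0 to 4 calls: 0 without Sox4cKO replicate 1 or replicate 2, and 1 without dcKO replicate 1 or replicate 2. The direction was lower under all 15, with log2 fold changes of -4.88 to -2.96 for *Prl2c5* probe A_52_P619248. *Prl8a6* in Sox4 cKO cells was -1.74 with an offset of 50 and -3.71 with the processed signals. In Sox11 cKO and in dcKO cells 0 members were called under any alternative that did not leave out 1 array. In dcKO cells the fold limit decided some of these. The limma adjusted p of *Prl8a6* was 0.0249 with the authors' table, 0.0371 with the dye effect subtracted and 0.0377 with only the arrays compared. With only the arrays compared it was 0.0387 for *Prl2c1* and 0.0491 for the second *Prl2c5* probe. Under the others of this kind it was above 0.05 for all members. In the dcKO minus Sox11 cKO comparison, 0 to 3 were called when arrays were left out, the 3 without Sox11cKO replicate 1.

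Signs turned only when a Sox11 cKO array was left out. In Sox11 cKO cells the log2 fold change of the *Prl2c5* probes then ranged from -0.998 to 1.49 and from -0.89 to 1.56, that of *Prl2c1* from -1.04 to 1.47 and that of *Prl8a6* from -0.48 to 0.26. The dcKO minus Sox11 cKO difference ranged from -0.18 to 2.31 and from -0.22 to 2.23 for *Prl2c5* and from -0.16 to 2.35 for *Prl2c1*, and from 0.66 to 1.39 for *Prl8a6*, whose sign did not turn. With median centring that of *Prl2c5* probe A_52_P619248 was 0.49. With 1 array left in a genotype, its spread is assumed to be that of the others. The alternative with mean spot signals was not run. *Prl8a6* lies near background, which limits its ratios.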
